A study of Mus musculus with 14 samples.

Results

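The regions described here are the 57 fusion partners outside the target whose sequence resembled a guide most closely in CAST-Seq of mouse embryonic fibroblasts (MEFs) treated with SaCas9. They were chosen by the alignment score that the authors deposited for each region, at a minimum of 6, from 730 regions in 3 tables. The on-target region of each table and 1 region of each table in a left-out stretch of chromosome 8 were not considered. There were 3 such regions of 66 with SaCas9g1, 37 of 496 with SaCas9g2 and 17 of 168 with SaCas9g1+g2. Regions of SaCas9g1+g2 were scored with both guides and kept the higher score, whereas the others were scored with 1 guide. The remaining 667 regions had lower scores and served as the background.

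All cells were CF-1 MEFs, taken on day 6 after nucleofection with 3 µg of SaCas9 protein and 72 pmol of guide RNA against Hao1, the gene of the peroxisomal enzyme glycolate oxidase. The groups were SaCas9g1 (guide g1, 2 libraries), SaCas9g2 (guide g2, 4 libraries) and SaCas9g1+g2 (both guides, 4 libraries). The first PCR of the assay was annealed at 63 °C for SaCas9g2 and at 61 °C for the other groups, so guide and PCR temperature cannot be told apart in comparisons with SaCas9g2. In that order, the groups had 1, 2 and 3 biological replicates, so part of the libraries, both of those with SaCas9g1 included, were technical replicates. Untreated MEFs were sequenced too but are not analysed here. Depth over all regions was 459219 to 1716787 reads a library.

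SaCas9, the nuclease of Staphylococcus aureus, cuts where its guide pairs with DNA that is followed by a protospacer adjacent motif (PAM) of the form NNGRRT, in which R is A or G and N any base. Mismatches in the guide bases next to the PAM, the seed, are in general tolerated least. CAST-Seq primes from the target and reads what has been joined to it, so a cut at an off-target site can appear as a translocation partner. A hit is a distinct fusion, whereas reads also carry PCR amplification.

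The targets are printed first, 5′ to 3′ with the PAM in capitals, because every region below is read against them. Their coordinates, like all that follow, are those of GRCm38 (mm10).
Hao1 target of g1, chr2:134548261-134548281 plus strand, then PAM: tccgtggatagagcttccatcTGGAAT
Hao1 target of g2, chr2:134548212-134548232 minus strand, then PAM: gtcaacttctgttttaggacaGAGAGT

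The sites that follow are the genome's bases at the deposited alignments, PAM included, with capitals at bases that were not matched to the guide or to NNGRRT or were extra to them. Guide bases that a site lacked leave no letter. The first 3 are the whole set of SaCas9g1, and the next 5 are the 3 of highest score and the 3 of fewest differences with SaCas9g2, of which 1 is both. Ties went to the site with fewer unmatched PAM positions, and then to that with more hits. Not shown are 3 more sites of score 8 and 1 more site of 5 differences.
chr2:88841913-88841941 (g1, minus strand): tccTtgTaGaAaAGgAttGcatctggaat
chr1:129279024-129279053 (g1, minus strand): tcAgCtggaAGgGgcttccatACcttgagG
chr15:94686218-94686245 (g1, plus strand): tccTAggCCtagaCcttGAatAgagaat
chr5:7095763-7095789 (g2, minus strand): gtcaaTCtctTttttaggGAatcAaat
chr2:72675144-72675171 (g2, plus strand): gtcTGctAcAgttttGgAgacacggTgt
chr9:106964627-106964653 (g2, minus strand): gtcaTAGacttctttCtagcagagggt
chr3:98058770-98058794 (g2, plus strand): gcaTcttctttttaACacaagggaG
chr6:55746949-55746972 (g2, minus strand): AtcTactttgtttagTacattTat

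The next 3 are the regions that the authors listed as called sites, the first 2 with SaCas9g2 and the third with SaCas9g1+g2. The last 4 are from SaCas9g1+g2, namely the 2 of highest score and the 2 without any difference in the seed, which were added after their values were seen.
chr14:19417588-19417608 (g2, plus strand): gtcCactgtaggacatggaat
chr9:35305335-35305355 (g2, plus strand): gtcctctgtaggacatggaat
chr6:93408920-93408946 (g2, minus strand): gtcaGttGtgAtttaAAacatgTgaCt
chr2:82015077-82015101 (g2, plus strand): gtcaaTAttgttttaggaTattaTt
chr7:80408635-80408663 (g1, plus strand): tcAgtggtagagAActtGccaCcgtgaaC
chr17:28057558-28057581 (g1, minus strand): GccCAggGtgcttccatctgggCt
chrX:129713799-129713824 (g2, plus strand): AtTaaGAAtgttttaggacagtgaaG

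The closest of the 57 sites reached 10 of the 22 points of a complete match. The deposited score adds 1 for a matched base and takes off 1 for an unmatched base, with a further cost for gaps. In the PAM, each aligned N counts -0.5 and a matched R adds nothing. It lay between 6 and 10 in the 57 regions, with 29 at exactly 6. Between 14 and 21 of the 21 guide bases were matched, with a median of 15. The recount of the alignments gave 4 to 8 differences from the guide (substitutions plus gap positions, PAM apart), with a median of 7 against a median of 8 in the regions of lower score. Since the score is made from these matches, that shift follows from the choice. The region that matched all 21 guide bases, in an intron of Tnfsf15 on chromosome 4, did so only with 7 extra genome bases spread among them and 2 unmatched PAM positions.

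Most alignments held gaps. Of the 57 sites, 5 were aligned without any gap in guide or PAM (8.77%), much like 54 of the 667 regions of lower score (8.10%), and none of the 57 had both an alignment free of gaps and a complete PAM. Among the regions of lower score, 7 of 667 had both. All 4 fixed PAM positions (G, R, R and T) were matched in 17 sites, 3 in 28, 2 in 11 and 1 in 1 site. By table, the PAM was complete in 2 of 3 sites with SaCas9g1, 11 of 37 with SaCas9g2 (29.7%, exact 95% interval 15.9% to 47.0%) and 4 of 17 with SaCas9g1+g2 (23.5%, 6.81% to 49.9%). The shares in the regions of lower score were 19.7%, 20.6% and 25.5%. These Clopper-Pearson intervals cover counting error only, and each of the 3 tables' intervals, 9.43% to 99.2% with SaCas9g1, held the value of the lower scores. PAM matches and gaps count in the score that chose the regions, so the shares describe that choice and are no test. In 13 of the 57 sites, the alignment ran a gap through the PAM itself. A PAM both complete and free of gaps was found in 11 of 57 sites and in 96 of 667 regions of lower score.

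Few sites had a seed free of both substitutions and gaps. The 8 guide bases next to the PAM had no difference in 0 of 3 sites with SaCas9g1, 0 of 37 with SaCas9g2 and 2 of 17 with SaCas9g1+g2, and in 1 of the 667 regions of lower score. With gaps left out of the count, 1 of 3, 10 of 37 (27.0%) and 2 of 17 (11.8%) had no seed substitution, against 4 of 61, 35 of 457 (7.66%) and 18 of 149 (12.1%) at lower scores. One of the 2 sites free of both, on chromosome X from 129713537 to 129714040, differed from g2 only in positions 1 to 9, counted from the 5′ end of the guide. Its substitutions were G1A, C3T, C6G, T7A and T8A, base 9 was missing, and 1 fixed PAM position was unmatched. It held 3 hits and 620 reads, all in 1 library. The second, in an intron of Anks1 on chromosome 17 from 28057377 to 28057878, held 3 hits and 3872 reads in 1 library. It lacked bases 10 to 12 of g1, carried T1G, G4C, T5A and A8G, and had 1 unmatched PAM position. In the 46 alignments to g2, the seed positions were matched in 76.9% of cases on average and positions 1 to 13 in 72.2%. The corresponding values in 529 alignments of lower score were 65.4% and 66.3%. In the 11 alignments to g1, they were 72.7% and 73.4%. These shares describe the choice by score and were not tested.

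The guide that had not been used showed how often a different sequence reached such scores in the same bins. Each bin was scored again with both guides by the deposited scheme, which returned the deposited score of every bin. With SaCas9g1, 3 of 64 regions reached a score of 6 with g1, which was used, and 3 of 64 with g2, which was not (4.69% each, interval 0.977% to 13.1%). With SaCas9g2, 37 of 494 regions reached it with g2 (7.49%, 5.33% to 10.2%) and 19 of 494 with the unused g1 (3.85%, 2.33% to 5.94%). A score of 8 or more was reached by 7 regions with g2 and by 5 with g1. With SaCas9g1+g2, 8 of 166 regions reached 6 with g1 and 9 of 166 with g2, and no region did so with both. The used guide thus exceeded the unused one with SaCas9g2 and equalled it with SaCas9g1, and the difference was not tested. Because g1 and g2 differ in sequence, guide use and guide sequence cannot be told apart in it. In the bins of SaCas9g2, the median score was 3 with g2 and 2.5 with g1, whereas it was 3 with both guides in those of SaCas9g1.

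In each table, the share of close matches read in 2 or more libraries was below that of all regions. However, the intervals with SaCas9g1 (0% to 70.8%), SaCas9g2 (15.9% to 47.0%) and SaCas9g1+g2 (10.3% to 56.0%) each held the share of all regions. With SaCas9g1, 0 of 3 were read in 2 or more libraries, against 10.9% of all 64 regions outside the target. The count was 11 of 37 with SaCas9g2, against 36.8% of 494, and 5 of 17 with SaCas9g1+g2, against 44.6% of 166. Of all 57 regions, 41 had reads in 1 library only. In 13 of the other 16, all further libraries together held 3 reads or fewer. With at least 10 reads required in each library, 1 of 37 close matches with SaCas9g2 and 1 of 17 with SaCas9g1+g2 were read in 2 libraries, against 24 of 457 and 10 of 149 regions of lower score. Over 99% of the reads came from 1 library in 53 of the 57 regions, and in 600 of the 667 others.

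Hits were few and overlapped those of other regions. No region in the tables had under 2 hits, and 20 of the 57 had just 2. The median number of hits was 2 with SaCas9g1 (range 2 to 10). It was 4 with SaCas9g2 (range 2 to 26). For SaCas9g1+g2 it was 3 (range 2 to 7). Regions of lower score had medians of 3 (2 to 62), 3 (2 to 159) and 4 (2 to 116). With SaCas9g2, 19 of 37 close matches had 4 or more hits (51.4%, interval 34.4% to 68.1%), compared with 202 of 457 (44.2%). With SaCas9g1+g2, there were 7 of 17 (41.2%, 18.4% to 67.1%) against 76 of 149 (51.0%), and with SaCas9g1 1 of 3 against 28 of 61. At 10 or more hits, the direction with SaCas9g2 turned, to 2 of 37 (5.41%) against 44 of 457 (9.63%). The counts were then 0 of 17 against 22 of 149 (14.8%) with SaCas9g1+g2 and 1 of 3 against 6 of 61 with SaCas9g1. Reads ranged from 9 to 16947, with a pooled median of 3872 against 3154 at lower scores. The direction differed between tables. Median reads were 126 against 831 with SaCas9g1, 4053 against 3328 with SaCas9g2 and 3872 against 4256 with SaCas9g1+g2. Over the 3 tables together, classes of score differed by 1 hit at most in their medians. The 9 regions of score 8 or more had a median of 4 hits (2 to 7), the 18 of score 7 or 7.5 a median of 3 (2 to 10) and the 30 of score 6 or 6.5 a median of 3 (2 to 26). At the limit of the choice, the 29 regions of score 6 and the 91 of score 5 or 5.5 both had medians of 3 hits. Regions with a complete PAM had a median of 5 hits (2 to 26, n = 17), those with 1 unmatched position 3 (2 to 8, n = 28) and those with 2 unmatched positions 2 (2 to 6, n = 11), while the single region with 3 unmatched positions had 8 hits. These ranges overlapped. Without 3 sites of a repeated sequence and its variant, left out after their values were seen, the median with a complete PAM was 4.5 hits (2 to 10, n = 14).

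Few close matches were among the called sites. There were 0 of 3 with SaCas9g1, 2 of 37 with SaCas9g2 and 1 of 17 with SaCas9g1+g2, while 4.69%, 5.67% and 5.42% of all regions outside the target were listed. These counts are at the background. No called site in the tables had reads in fewer than 2 libraries, and the 41 regions with 1 library were not among them. The authors' label for off-target-mediated fusion, OMT, was carried by 9 regions outside the target and the left-out stretch, and these were the 9 regions of score 8 or more. Here the label thus marked the same regions as the score and was no separate evidence of a cut. None of these 9 was a called site.

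The called region with most hits covered 19415511 to 19419951 of chromosome 14, and its site was intronic in the predicted gene Gm21738. It had a score of 6. The 4 SaCas9g2 libraries, in the order of the columns, held 8, 6, 5 and 7 hits and 18, 9, 718 and 26 reads. The hits were thus even across libraries, while 1 library held most of the 771 reads. Its PAM, TGGAAT, was complete, but 6 of the guide's bases were missing (8 to 10 and 13 to 15) and A4C was substituted. The same 21 bases occurred 49 times on the assembled chromosomes, 38 times on chromosome 9 and 8 times on chromosome 14, all 8 inside this region. The most common distance between neighbouring copies was 234 bp, found for 12 of 44 distances. This is the unit length known of mouse major satellite DNA, the tandem repeat that surrounds the centromeres. A region of SaCas9g1+g2 overlapped it (19416310 to 19419615), with a best score of 4, 11 hits and 46 reads, which were spread as 1, 4, 1 and 40 over the libraries.

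A further close match lay in the same repeated sequence, and another in a variant of it that differed at 1 of the 21 bases. On chromosome 9 from 3000178 to 3002595, in a noncoding exon of the predicted gene Gm26870, the site was identical to that on chromosome 14. It held 6 hits and 3, 0, 0 and 18 reads, and was not listed as called. The called region of chromosome 9 (35305013 to 35305830, intronic in the predicted gene Gm33838) carried a site that occurred once in the reference and lacked bases 4, 5, 8 and 13 to 15 of g2, with no substitution. Its score was 7. The libraries held 2, 2, 2 and 4 hits and 3, 202, 2 and 8 reads. It was one of only 2 close matches with reads in every library, the other being that on chromosome 14. Regions read in every library made up 2 of 37 close matches with SaCas9g2 and 21 of 457 regions of lower score. The bin was soft-masked as repeat over 84.6% of its length on chromosome 14 and over 100% in both bins on chromosome 9. Regions of lower score also held copies of repeated sequences of the close matches. Called regions on chromosome 2 from 98662052 held 1 copy each, with SaCas9g2 (score 2, 159 hits) and SaCas9g1+g2 (score 2, 116 hits). With SaCas9g1, a region on chromosome 9 from 3025247 held 1 copy (score 1, 2 hits) and was not called. The part of repeat content in these hits was not tested.

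The called region of SaCas9g1+g2 lay between genes on chromosome 6 from 93408701 to 93409246. It had a score of 6 with g2, from 5 substitutions and 1 missing base, with a gap in the PAM and 1 PAM position unmatched. The 4 libraries held 0, 3, 1 and 1 hits and 0, 5537, 1 and 11 reads, so it too rested on 1 library for its reads. No region of the SaCas9g1 or SaCas9g2 tables overlapped it.

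The closest match by score covered 7095474 to 7095983 of chromosome 5 and was intronic in Zfp804b, a gene of a zinc finger protein. It scored 10, had no gap and differed from g2 by C6T, T7C, G11T, A19G and C20A. Its PAM, TCAAAT, had 1 of the 4 fixed positions unmatched. It held 6 hits, and 0, 3437, 0 and 0 reads across the SaCas9g2 libraries. A single library therefore carried it. The site of score 9 on chromosome 2 from 72674862 to 72675365, between genes, held 5 hits and 7893 reads, also in 1 library, and its PAM was CGGTGT with 1 unmatched position.

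Among SaCas9g2 regions with a complete PAM, 2 shared the highest score, 8. One was intronic in Ppp1r7, the gene of a regulatory subunit of protein phosphatase 1 (chromosome 1, 93348764 to 93349264), with a gap in its PAM, 2 hits and 4312 reads in 1 library. The other, with the PAM GAGGGT, covered 106964445 to 106964945 of chromosome 9 within an intron of Dock3, which encodes an activator of the GTPase Rac. This second alignment needed 3 extra bases after position 4 and lacked bases 11, 18 and 19. It held 4 hits, and 0, 0, 7417 and 1 reads. An intron of Notch2, which encodes a cell surface receptor of the Notch family, held a site of score 8 and 5 differences (chromosome 3, 98058519 to 98059019) with 2 hits and 4906 reads in 1 library. The site of 5 differences on chromosome 6 (55746716 to 55747221, between genes) had a score of 6, 2 unmatched PAM positions and 6 hits with 3071 reads in 1 library. In an intron of Nck1, the gene of an adaptor protein of receptor signalling, a region of score 6 (chromosome 9, 100531114 to 100531621) had 8 hits and 6128 reads, again in 1 library. It was 1 of 3 SaCas9g2 regions with 8 hits, the most after the called regions on chromosomes 14 and 9.

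With both guides, the fewest differences of all 57 sites were found on chromosome 2 from 82014824 to 82015324, between genes. It scored 9 with g2 from the substitutions C6T, T7A and C20T and 1 missing base, but 2 of the 4 fixed PAM positions were unmatched. It held 2 hits, and 0, 0, 0 and 4133 reads. The highest score with g1 was 8, on chromosome 7 from 80408486 to 80408989, with 4 hits, and 0, 1, 9940 and 0 reads. A site on chromosome 3 from 159018751 to 159019252 scored 7.5 and held 3 hits and 1641 reads in 1 library. The most hits lay in an intron of Rin2, the gene of a Rab5 regulator (chromosome 2, 145677107 to 145677610), with 7 hits but only 230 reads, all in 1 library. A region reaching into a UTR of Plgrkt, which encodes a plasminogen receptor (chromosome 19, 29361684 to 29362203), held 6 hits and 1792 reads in 1 library.

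With SaCas9g1, each of the 3 regions was read in 1 library, 2 in the first and 1 in the second. The region on chromosome 2 from 88841729 to 88842243, between genes, held 10 hits with 4997 and 0 reads, and its PAM, TGGAAT, was that of the target. In an intron of Thsd7b (chromosome 1, 129278796 to 129279302), there were 2 hits with 0 and 126 reads. The third, in an intron of Tmem117, the gene of a transmembrane protein (chromosome 15, 94686035 to 94686535), held 2 hits with 14 and 0 reads. This was the only close match found in 2 tables. Its counterpart with SaCas9g1+g2 (94686027 to 94686530) held 6 hits, and 1, 8226, 2 and 0 reads. Both were aligned to the same 28 bases, with a complete PAM, GAGAAT, and 7 substitutions and 1 extra base relative to g1 (G4T, T5A, A8C, G13C, C17G, C18A and C21A). No region of SaCas9g2 overlapped it. Overlap with any region of another table was seen for 4 of the 57 close matches (7.02%), counting this pair as 2, and for 44 of the 667 regions of lower score (6.60%). Besides the region on chromosome 14, the remaining one was intronic in Sel1l2 on chromosome 2 (140262341 to 140262848), with 6 hits and 0, 8644, 0 and 0 reads in SaCas9g1+g2. The region of SaCas9g2 that it overlapped (140262170 to 140262841) had a score of 5, 7 hits and 0, 3, 2 and 14486 reads.

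At the alignments, GENCODE placed 27 of the 57 sites in introns, 25 between genes, 3 in noncoding exons, 1 in a UTR and 1 in a coding exon. The coding one was in Ccdc81 (chromosome 7, 89877209 to 89877709) and held 2 hits and 3177 reads. One region on chromosome 18, in an intron of Fhod3, had the fewest reads of all, with 2 hits and 9 reads. Over 50% of the bin was soft-masked as repeat in 15 of 57 close matches, compared with 187 of 667 at lower scores. The shares were 21.6% against 28.7% with SaCas9g2, 35.3% against 26.8% with SaCas9g1+g2, and 1 of 3 against 26.2% with SaCas9g1, so the direction differed between tables. The median GC content of the bins with SaCas9g2 was 38.8% for close matches and 43.3% at lower scores. It was 45.8% and 42.3% with SaCas9g1, and 45.3% and 44.3% with SaCas9g1+g2, so close matches were the lower only with SaCas9g2. Most sites were single, with 50 of the 57 sequences occurring once on the assembled chromosomes. Besides the sequence of 49 copies, 2 sequences of SaCas9g2 were common, on chromosome 3 from 48980148 (20650 copies, 2 hits, 11363 reads) and on chromosome 17 from 67579117 (1262 copies, 2 hits, 4817 reads). The alignment lay a median of 40.5 bp from the middle of its region, against 45.5 bp at lower scores.

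The libraries were compared by the percentage of the regions read in each that were close matches. The values were 8.70% and 2.08% with SaCas9g1, then 9.66%, 8.70%, 5.03% and 5.58% with SaCas9g2, and 4.55%, 11.4%, 7.25% and 9.59% with SaCas9g1+g2. All 3 ranges overlapped. The means were 5.39% ± 4.68 (SD, n = 2), 7.24% ± 2.28 (SD, n = 4) and 8.19% ± 2.96 (SD, n = 4), where n counts libraries and not biological replicates, so both comparisons with SaCas9g1 rest on 1 biological replicate of it. SaCas9g2 exceeded SaCas9g1 by 1.85 percentage points (exact two-sided permutation test, p = 0.667). SaCas9g1+g2 exceeded SaCas9g1 by 2.80 points (exact permutation p = 0.40) and SaCas9g2 by 0.95 points (exact permutation p = 0.657). Only SaCas9g1+g2 was scored with both guides, so these 2 comparisons, as run, do not separate treatment from scoring. By g2 alone, 5.42% of SaCas9g1+g2 regions outside the target reached a score of 6, against 7.49% of SaCas9g2 regions. By g1 alone, 4.82% of SaCas9g1+g2 regions did, against 4.69% of SaCas9g1 regions. Library shares by 1 guide were not tested. After Holm adjustment over the 3 comparisons, each p was 1. The smallest p possible is 0.133 for 4 libraries against 2 and 0.0286 for 4 against 4, so only the last comparison could have passed 0.05 before adjustment and none after it. The names of the libraries carry the letter B with SaCas9g1, A and B with SaCas9g2, and A, B or old with SaCas9g1+g2, whose meaning is not given. Some names also end in MEF and the others begin with Hao1, which is not explained either. Where a letter had both kinds, the averages by letter took them together. Averaged by letter, a choice made after seeing the data, the means differed by 1.85, 2.03 and 0.18 points in the same order (exact permutation p = 0.667, 1 and 1; smallest possible 0.667, 0.5 and 0.2). Within letters, SaCas9g1+g2 minus SaCas9g2 was -2.80 points for A and 3.34 points for B. The direction against SaCas9g1 was not stable. It turned to -2.94 points for SaCas9g2 and -1.73 points for SaCas9g1+g2 when the percentage of reads was used. The first SaCas9g1 library had 18.1% of its reads outside the target in close matches and the second 0.194%.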

How the data were processed

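CAST-Seq libraries of treated MEFs were analysed from the tables of all regions and of called sites. Per the submitters' processing notes, the authors used Bowtie2 2.3.4.2 and bedtools 2.27.1. The deposited counts are reads and hits per library, without normalization. The deposited score rates the best alignment of guide plus PAM in a bin of each region. The deposited p-values were not used. Reads per library were taken for all regions and hits per library for called sites, and 60 other columns of single libraries were not used. All 730 alignments were found at their bins in GRCm38, and the score was rebuilt from 729 of them. The exception is a truncated alignment of low score. Gapped alignments can have equally good alternatives, and those deposited were counted. Substitutions, gaps, seed and PAM were recounted with Python 3.11.15 and pandas 2.3.3, and 200 of 200 simulated alignments were counted correctly. Exact copies were sought with pysam 0.24.0 on the assembled chromosomes, and genes were taken from GENCODE vM21. Libraries were compared by exact permutation tests (SciPy 1.17.1), and since they come from 1, 2 and 3 biological replicates with technical repeats, their p-values measure only the spread between libraries. The members and lists were chosen with earlier results of these data known. Named regions were the called ones, the 3 of highest score, fewest differences and most hits in each table, and those shared between tables by at least 1 bp. Others named in the text were picked after their values were seen. Alternatives changed the score limit, the reads or hits required, region width, distance from the target, the PAM and gap rules, the libraries included and, added after the data were seen, the letter in the library names.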

Additional observations from a re-analysis of the deposited data

How the results depend on the processing

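No paired analysis was possible because the library columns carry no replicate number, and the letters in their names are not explained. With a score of 5 in place of 6, the differences grew from 1.85 to 9.22 percentage points (SaCas9g2 minus SaCas9g1), from 2.80 to 21.2 (SaCas9g1+g2 minus SaCas9g1) and from 0.95 to 11.95 (SaCas9g1+g2 minus SaCas9g2). The last then had an exact permutation p of 0.0286 (0.0857 after Holm adjustment), in a table scored with both guides. After adjustment, none of the 3 comparisons passed 0.05 under any alternative that was run, and this was the only one to do so before it. With a score of 8 in place of 6, SaCas9g1+g2 minus SaCas9g2 turned to -0.27 percentage points. With the percentage of reads, the differences from SaCas9g1 turned to -2.94 for SaCas9g2 and -1.73 for SaCas9g1+g2. With each library left out in turn, SaCas9g2 minus SaCas9g1 ranged from -1.45 to 5.16, SaCas9g1+g2 minus SaCas9g1 from -0.51 to 6.10 and SaCas9g1+g2 minus SaCas9g2 from -0.11 to 2.16. The negative values came without the second SaCas9g1 library, which leaves that group with 1 library, or without the second SaCas9g1+g2 library. The cause was not tested. Of 59 other alternatives of the shares of close matches, 47 stayed within the main interval and 12 did not. With 10 reads per library, the share read in 2 libraries fell to 2.70% with SaCas9g2 and 5.88% with SaCas9g1+g2. With gap positions left out, the share with at most 5 differences rose from 10.8% to 73.0% and from 5.88% to 70.6%, and with seed gaps left out, the SaCas9g2 share with an intact seed rose from 0% to 27.0%. With 10 hits in place of 4, the SaCas9g2 share fell from 51.4% to 5.41%, and that of SaCas9g1+g2 fell from 41.2% to 0%. No SaCas9g1 region reached a score of 8. With 3 to 37 regions per table, counting error limits every share.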

Other observations

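Among the 41 close matches with at least 1000 reads in 1 library, the reads found in a second library followed the order of the columns with SaCas9g2. In 5 regions library 1 held 3176 to 11362 reads and library 2 held 1 or 2 reads, and in 3 regions library 3 held 4756 to 16946 reads and library 4 held 1 read. The names of SaCas9g2 libraries 1 and 2 end in MEF, and those of libraries 3 and 4 begin with Hao1, which is not explained. Regions of lower score were not counted in this way, so the pattern is not shown to be particular to close matches. With SaCas9g1+g2, 2 regions held mostly by library 3 had 1 read in library 2. Of 2 regions held mostly by library 2, that on chromosome 15 had 1 read in library 1 and 2 in library 3, and that on chromosome 6 had 1 read in library 3 and 11 in library 4. The deposited flag for barcode hopping was set for 0 of the 730 regions. How the single reads arose was not tested.

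A search for the guide without gaps gave another view of the same regions, although the best site found need not be the deposited one. In a window of fixed width around the middle of each region, the best ungapped site with a complete PAM had a median of 12 substitutions from g2 in the 37 close matches of SaCas9g2, and a median of 12 in the 457 regions of lower score. The unused g1 gave a median of 13 in both. The lowest count was 7 substitutions from g2, in an intron of Pcdh7, the gene of a protocadherin (chromosome 5, 57992220 to 57992723), which held 5 hits and 6027 reads in library 4 only. One region of lower score also reached 7. At most 8 substitutions were reached in 3 of 37 close matches and in 2 of 457 regions of lower score with SaCas9g2. The counts were 0 of 3 against 0 of 61 with SaCas9g1, and 0 of 17 against 1 of 149 with SaCas9g1+g2. The score that chose the regions also rises with such matches, and these shares were not tested.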
